A study of Mus musculus with 6 samples.

Results

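The clustered histone genes are the rows of the deposited expression table whose symbol begins with Hist1h, Hist2h, Hist3h or Hist4h. There are 68 of them among the 24062 rows. Rows were taken by symbol and no measured value entered that rule, though earlier results of these data were known when it was set. By class they encode the linker histone H1 (6 genes) and the core histones H2A (18 genes), H2B (19 genes), H3 (12 genes) and H4 (13 genes). By position 54 belong to the Hist1 cluster on mouse chromosome 13, 10 to Hist2 on chromosome 3, 3 to Hist3 on chromosome 11 and 1 to Hist4 on chromosome 6. A value above 0 was recorded in at least 1 library for 52 of the 68, and 16 had no read in any library.

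RNA sequencing was done on hematopoietic stem cells (HSC) sorted from mice, with 3 control libraries and 3 libraries labelled CDKO. Control mice were Nr4a1 fl/fl; Nr4a3-/-, and CDKO mice were Nr4a1 fl/fl; Nr4a3-/-; Rosa26-ERt2. Both groups received 4 daily injections of tamoxifen at 120 mg/kg, given to excise Nr4a1, and cells were sorted on day 5. Controls therefore also lacked Nr4a3 and also received the drug, and the age of the mice is not given in the sources used here. Nr4a1 and Nr4a3 encode orphan nuclear receptors, and the study's title places them as brakes on HSC proliferation. Cells of 3 to 5 mice were pooled for every library, so the values describe pools and not single animals. The construct that sets CDKO apart is labelled only Rosa26-ERt2, with no cell type for its activity, and the markers used for the sort are not given in the sources used here.

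A dividing cell must double its histones as it copies its DNA, and the clustered genes supply most of that protein during S phase. Their mRNAs are the only known animal mRNAs that end, in their usual form, at a short stem-loop and not at a poly(A) tail. The stem-loop binding protein SLBP and the U7 small nuclear ribonucleoprotein direct that cleavage. Some clustered genes can also use a downstream polyadenylation site, and the mRNAs so made persist in cells that have left the cycle; Hist1h1c is one such gene. The libraries were made with the SMARTer Ultra Low Input kit, which starts cDNA from poly(A) tails, so the usual stem-loop form is not primed from a tail. Read counts of these genes therefore cannot be taken as the amount of all their mRNA. The number of HSC in S phase is not given in the sources used here.

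The stem-loop was searched in the GENCODE M21 transcripts (GRCm38, which is mm10). It was found in 39 of the 68 clustered genes, against 44 of all 55341 annotated genes (0.0795%). Within that pattern, which bounds the forms that could be found, its 16 bases took 3 forms, carried by 26, 7 and 6 clustered genes. One gene of each form is shown because this element defines the class. The stem-loop is in capitals with 6 bases on either side, as DNA letters of the sense strand, 5′ to 3′:
Hist1h1c: ccaaaaGGCTCTTTTCAGAGCCaccact
Hist1h4d: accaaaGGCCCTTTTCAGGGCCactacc
Hist1h2bk: accaaaGGCTCTTTTAAGAGCCactaaa
One of the 5 other genes that carry it is H2afx, whose mRNA is known in both the stem-loop and the polyadenylated form. Gm20634 and Trim17, also among the 5, overlap clustered histone genes on the same strand. A gene model with no stem-loop is a statement about these annotated letters and this pattern only, and other variants of the stem-loop were not searched.

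Where the annotated transcript stopped relative to the stem-loop differed among the clustered genes. In 19 genes the model ran on for at least 100 bases past it, in 20 it stopped closer than that, and in 29 no stem-loop was found in the model. Hist1h1c, at chr13:23738808-23740367 on the plus strand, ran 840 bases past its stem-loop and held a polyadenylation hexamer (AATAAA or ATTAAA) in its last 50 bases. Hist1h4d ran 770 bases past and Hist1h1e 1153 bases past. Hist1h2bk, at chr13:22035870-22036345 on the plus strand, stopped 30 bases past.

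The levels are set out by the same division. CPM is the number of a gene's reads per 1000000 reads assigned to genes in that library. The median over genes of the mean CPM was 0.303 where the model ran on, 0.187 where no stem-loop was found and 0.0317 where it stopped near the stem-loop. A mean of at least 1 CPM was reached by 5 of the 19 genes, 6 of the 29 and 1 of the 20, and the last of these was Hist1h2ab. Of the 16 genes with a polyadenylation hexamer in the last 50 bases 5 reached 1 CPM, and of the 52 without one 7 did. CPM is not divided by length, and a model that runs on is longer for that reason alone. Divided by exon length, the middle gene was Hist1h1d at 0.113 CPM per kilobase where the model ran on. Where no stem-loop was found it was Hist1h2bn at 0.390, so the order of these groups turned. All these values are descriptions over genes that share clusters and sequence, and they were not tested.

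Reads cannot be assigned where gene copies are identical, and many clustered genes have near copies. Each gene's longest transcript was read in overlapping windows of 50 bases, and a window was called unique if no other annotated gene held it on either strand. A gene annotated over the same place, on either strand, thus counts against uniqueness just as a copy elsewhere does. The median share of unique windows was 22.2% for the 16 genes with no read, 53.6% for the 52 with reads and 70.2% for the 12 that reached 1 CPM. Of the 16 genes at 0, 12 had fewer than 50% of their windows unique, and Hist2h2aa1, Hist2h2aa2 and Hist2h3c1 had none. These last genes are wholly overlapped by other annotated genes. The other 4 at 0 were Hist1h1t, the testis linker histone, with every window unique, Hist1h2aa with 76.2%, Hist1h2ba with 61.8%, and the pseudogene Hist3h2bb-ps with 69.95%. Among the 52 genes with reads 22 also had fewer than 50% unique. Hist2h2bb and Hist2h3b, whose windows all lie in Gm20628 on the other strand, had no unique window and still had reads. How the submitters' counting treated reads that fit several genes is not given in the sources used here, so a 0 in such a gene says little about its mRNA. The kit does not mark strand, so reads of genes that overlap on opposite strands cannot be told apart either.

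**Figure D1:**
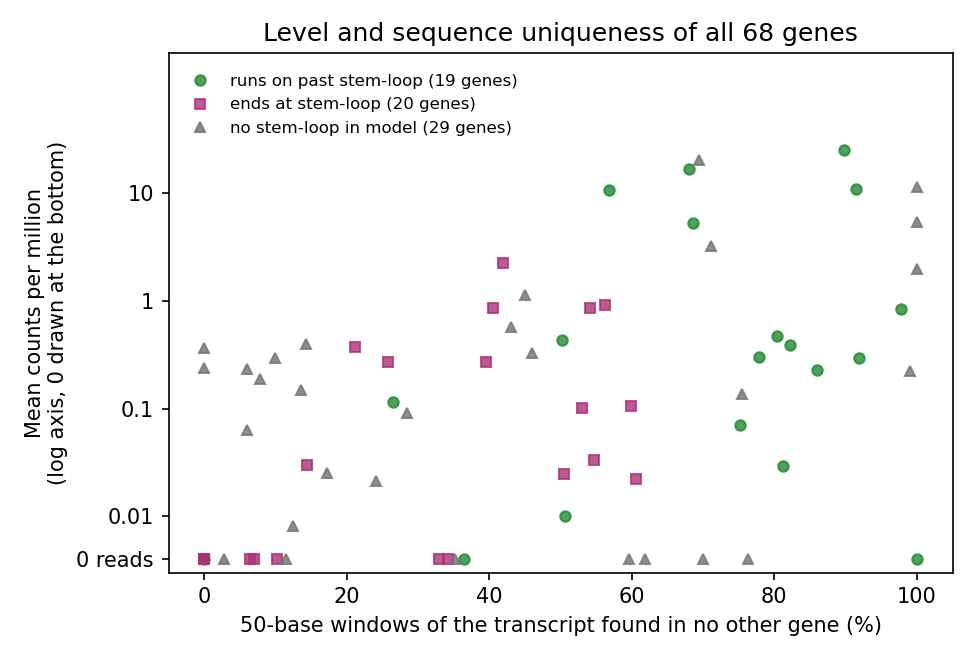
Each point is 1 of the 68 clustered histone genes, with the percentage of its 50-base windows found in no other annotated gene on the x axis and its mean CPM over the 6 libraries on a log y axis (genes with no read sit on the lowest line). Colour and shape give where the gene model stops relative to the stem-loop, and the 12 genes at 1 CPM or more lie mostly to the right, with a median of 70.2% of windows unique.

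Over the 6 libraries the clustered genes together held a mean of 125 CPM, from 32863805 to 42772261 reads per library. A count of 0 allowed up to 0.0701 CPM in the deepest library and 0.0913 CPM in the shallowest (3 reads, counting error only). The 12 highest genes held 91.7% of the clustered histone CPM and the 4 highest, Hist1h4d, Hist1h2bc, Hist1h1e and Hist2h2be, held 58.9%. Another 40 genes had reads but a mean under 1 CPM. Divided by exon length, the highest were Hist1h4d at 21.9 CPM per kilobase, Hist1h2bc at 17.5 and Hist1h2ae at 15.3, followed by the linker histone genes Hist1h1e at 8.696, Hist1h1b at 7.25 and Hist1h1c at 6.94. On that scale the variant histone genes outside the clusters ranged widely. H3f3b at 328, H1f0 at 140 and H2afx at 103 CPM per kilobase were above every clustered gene, Cenpa at 14.6 and H2afy2 at 2.04 were below the highest clustered genes, and Hils1, H1fnt and H2afb1 had no read.

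The sum over all 68 genes was 114, 99.2 and 104 CPM in the 3 control libraries and 148, 144 and 139.9 CPM in the 3 CDKO libraries. Every CDKO library lay above every control library. The means were 106 ± 7.44 and 144 ± 4.19 CPM (SD, n = 3 each), a ratio of 1.36. Much of the difference was in 1 gene: without Hist1h2bc the ratio was 1.22, from 93.9 ± 7.58 to 115 ± 4.22 CPM. The classes did not move alike. H2B summed to 24.5, 26.4 and 26.7 CPM in control and 45.1, 44.6 and 46.8 CPM in CDKO, with no overlap and a ratio of 1.76. Most of this H2B rise was in Hist1h2bc, whose mean went from 11.6 CPM in control to 28.9 CPM in CDKO. Linker H1 summed to 32.8, 26.8 and 30.1 CPM in control and 43.2, 42.1 and 39.98 CPM in CDKO, again with no overlap (ratio 1.395). H4 went from 30.1, 23.3 and 23.6 CPM in control to 36.2, 35.1 and 33.5 CPM in CDKO, also without overlap (ratio 1.36). These sums too rest largely on single genes. The largest rise in H1 was that of Hist1h1c, from a mean of 7.02 CPM in control to 14.6 CPM in CDKO. In H4 it was that of Hist1h4d, from 21.9 to 28.0 CPM. H3, the lowest class, summed to 0.958 ± 0.0344 CPM in control and 1.502 ± 0.181 CPM in CDKO (SD, n = 3 each). H2A summed to 25.3, 21.8 and 22.4 CPM in control and 22.1, 20.4 and 18.3 CPM in CDKO, and here the groups overlapped. By cluster, Hist1 summed to 85.8 ± 8.43 CPM in control and 125 ± 4.47 in CDKO, whereas Hist2 held 13.3 ± 1.41 and 13.7 ± 0.860 CPM and Hist3 held 5.98 ± 0.903 and 5.18 ± 0.797 CPM (SD, n = 3 each). These sums are given without a test.

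**Figure D2:**
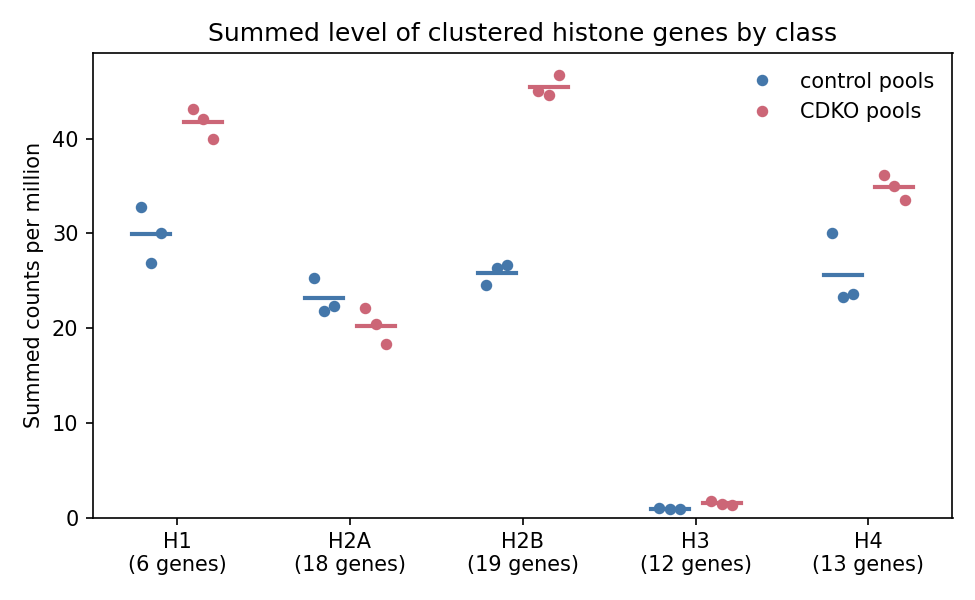
Summed CPM of each histone class on the y axis, with 1 point per library and a bar at each group's mean, for the 3 control pools and the 3 CDKO pools. The H2B, H1 and H4 sums of the CDKO pools lie above those of all control pools, while the H2A sums overlap. Most of the H2B difference is in Hist1h2bc.

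Differences were tested gene by gene with limma on log2(CPM + 1), which understates the change of genes with low values. A gene was tested if it averaged at least 10 reads over the 6 libraries, and 29 of the 68 clustered genes did. With a Benjamini-Hochberg adjusted p under 0.05 over all 13732 genes tested, 11 clustered genes were higher in CDKO and 5 were lower, and 13 did not pass. Over all genes tested 66.2% were called, 31.1% higher and 35.2% lower, so the share of clustered genes called was no larger than that of genes at large. The median log2 difference was 0.28 over the 29 and −0.02 over all genes tested. Those 29 are not all members, and 11 of them, 8 of the 16 called ones among them, averaged at least 10 reads in 1 group only. Such a gene passes the filter through the group in which it is high. The 8 were Hist1h2bk, Hist1h2ag, Hist1h2be and Hist1h4c, higher in CDKO, and Hist4h4, Hist3h2ba, Hist1h2bg and Hist1h2an, lower. Their calls are therefore descriptions, and Hist2h2ac was the only lower gene outside them. In 22 of the 29 the groups did not overlap, 15 with CDKO higher and 7 with control higher, against 70.7% of all genes tested (33.4% higher and 37.2% lower). After quantile normalization 15 were higher and none of the 5 lower genes was called (limma adjusted p 0.0814 to 0.462), so that the share of higher among called members went from 68.8% to 100%. That scaling also turned the balance over all genes tested, from 4264 higher and 4832 lower to 4690 higher and 4445 lower.

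**Figure D3:**
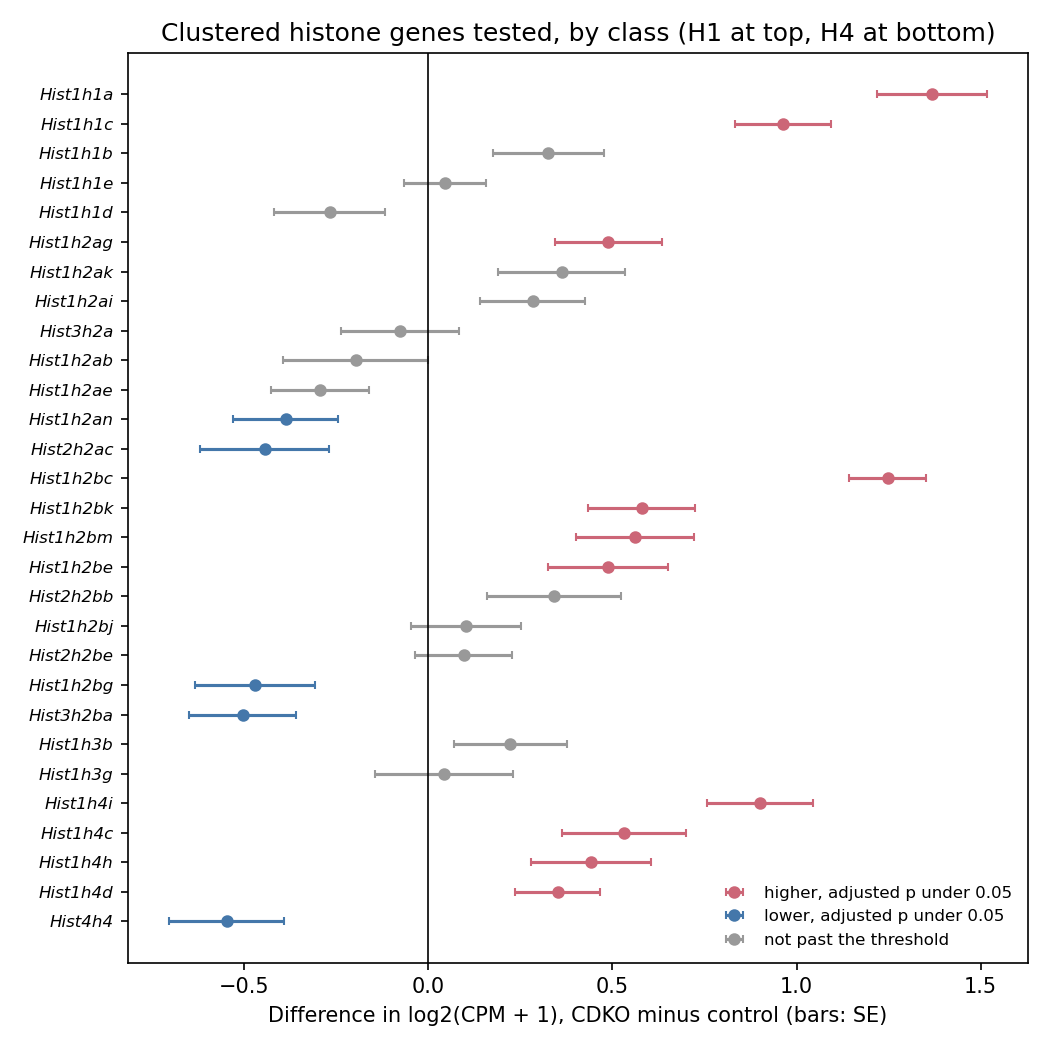
Difference in log2(CPM + 1), CDKO minus control, for the 29 clustered histone genes tested (x axis, points with the standard error from limma as bars), grouped by histone class from H1 at the top to H4 at the bottom and ordered by size within each class, with colour for genes past the adjusted p of 0.05 in either direction and for those that did not pass. The 11 higher genes reach 1.37 at Hist1h1a and the 5 lower ones reach -0.55 at Hist4h4; none of the 5 passes after quantile normalization.

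The check of the labels was partial. Nr4a1 measured 15.2, 13.4 and 12.9 CPM in control and 8.52, 9.76 and 9.12 CPM in CDKO, lower in every CDKO library but not absent (log2 difference -0.55 ± 0.12 SE, limma adjusted p = 0.00204). Nr4a2 did not pass (limma adjusted p = 0.0547), and Nr4a3 had no read in any library. All 12 HSC markers were read, with a sum of 5276 ± 147 CPM in control and 4744 ± 105 in CDKO (SD, n = 3 each). Markers of other cells moved with the groups: 10 of 10 neutrophil markers were lower in CDKO, with a sum of 1048, 799.8 and 804 CPM in the control libraries and 22.7, 15.5 and 89.6 CPM in the CDKO libraries. Of 8 tested erythroid markers 6 were lower, with a sum of 562 ± 31.4 against 130.3 ± 16.5 CPM, and Hba-a1, Hba-a2 and Hbb-bt were at 0. Of 6 tested mast cell and basophil markers 5 were lower and 1 higher, with a sum of 229 ± 29.5 against 8.16 ± 2.16 CPM, and Cma1 was at 0. Beside these marker counts, 31.1% of all genes tested were higher in CDKO and 35.2% lower. Sums over megakaryocyte markers (1794 ± 64.02 against 1804 ± 50.4 CPM), B cell markers (51.8 ± 4.67 against 59.02 ± 2.098 CPM, Pax5 and Ms4a1 at 0), T cell markers (0.252 ± 0.199 against 2.68 ± 0.386 CPM, Cd3e, Cd3g and Cd8a at 0) and macrophage markers (49.4 ± 2.83 against 56.2 ± 2.08 CPM) were no lower in CDKO. The T cell sum, low in both groups, had the largest relative rise of these. The part of these differences in the clustered histone values was not tested. In RNA of sorted pools, fewer cells of a type and less RNA per cell cannot be told apart, and this holds for cells in S phase as well.

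Among linker histones 2 of 5 tested genes rose and the other 3 did not pass. This count and those of the other classes below stand beside 31.1% higher and 35.2% lower over all genes tested. H1 sits where DNA enters and leaves the nucleosome, and its subtypes differ between cell types. Hist1h1c, the gene of subtype H1f2 in current naming, measured 7.72, 6.55 and 6.78 CPM in control and 14.97, 15.99 and 12.98 CPM in CDKO. All CDKO libraries were above all control libraries. The log2 difference was 0.96 ± 0.13 (SE; limma adjusted p = 6.20e-05), a ratio of means of 2.09. Hist1h1a, the gene now named H1f1 (chr13:23763666-23764406, 1 exon, every window unique), measured 0.537, 0.850 and 0.638 CPM in control and 3.499, 3.28 and 3.16 CPM in CDKO. The groups were far apart, from 79 reads in all control libraries together to 386 in CDKO. At 1.37 ± 0.15 (SE), its difference in log2(CPM + 1) was the largest of the 29 (limma adjusted p = 1.20e-05). That ranking depends on the scale: with edgeR its log2 difference was 2.31, below the 4.73 of Hist1h2bk, a gene of few reads.

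The other linker histone genes did not pass. Hist1h1e, the most abundant of them, measured 18.2, 14.8 and 16.6 CPM in control and 17.6, 16.3 and 17.2 CPM in CDKO. The groups overlapped (log2 difference 0.04 ± 0.11 SE, limma adjusted p = 0.740), and 25.7% of its exon bases lie within Hist1h2be or Gm11398 on the same strand, which makes its count uncertain. Hist1h1b, now H1f5, measured 5.32, 3.78 and 4.96 CPM in control and 6.42, 5.69 and 6.15 CPM in CDKO. CDKO was higher in every library, but limma's adjusted p was 0.0760, or 0.0128 after quantile normalization and 0.0482 with a pseudocount of 5 CPM. Hist1h1d measured 1.05, 0.905 and 1.06 CPM in control and 0.700, 0.820 and 0.491 CPM in CDKO, with the control libraries higher and a limma adjusted p of 0.137, or 0.0439 with no filter.

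Among H2B genes 4 of 9 tested rose and 2 fell. Of these, Hist1h2bk, Hist1h2be, Hist1h2bg and Hist3h2ba averaged at least 10 reads in 1 group only, so their calls are descriptions. Hist1h2bc measured 11.2, 10.8 and 12.99 CPM in control and 29.1, 28.5 and 29.2 CPM in CDKO. The CDKO libraries lay close together and well above the highest control. The log2 difference was 1.25 ± 0.11 (SE; limma adjusted p = 2.21e-06), a ratio of means of 2.49. This gene, at chr13:23684199-23692908 on the plus strand, has 2 exons and 1156 exon bases in its model, no stem-loop was found in it, and 69.4% of its windows were unique. Hist2h2be, the other abundant H2B gene, measured 10.4, 12.8 and 10.2 CPM in control and 11.4, 11.2 and 13.2 CPM in CDKO. Here the groups overlapped, and limma's adjusted p was 0.540.

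The other H2B genes were read at low levels. Hist1h2bm measured 0.384, 0.631 and 0.614 CPM in control and 1.61, 1.16 and 1.08 CPM in CDKO. Every CDKO library was above every control (log2 difference 0.56 ± 0.16 SE, limma adjusted p = 0.00876). Hist1h2bk had 0, 0 and 2 reads in the control libraries and 13, 26 and 23 reads in the CDKO libraries. It was thus nearly absent from control, with a ratio of pooled reads per total of 31.2 (8.28 to 263), where the exact 95% interval covers counting error only and not the spread between pools (limma adjusted p = 0.00433), and 25.8% of its windows were unique. Hist1h2be, whose model overlaps Hist1h1e, had 4, 3 and 12 reads in control and 20, 17 and 37 in CDKO. It too was higher in every CDKO library (limma adjusted p = 0.0199), and it was no longer called without control 2 or without CDKO 3 (adjusted p = 0.0636 and 0.0631). Hist1h2bj did not pass, with 0.796 ± 0.153 CPM in control against 0.926 ± 0.117 in CDKO (SD, n = 3 each), and neither did Hist2h2bb, with 0.192 ± 0.0813 CPM against 0.535 ± 0.362, which lies wholly within Gm20628 on the other strand. Hist2h2bb was called without CDKO 1 and after quantile normalization (adjusted p = 0.0469 and 0.0169).

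The 2 H2B genes that fell were Hist1h2bg and Hist3h2ba. Hist1h2bg had 23, 16 and 41 reads in control and 8, 9 and 5 reads in CDKO. The groups did not overlap (log2 difference -0.47 ± 0.16 SE, limma adjusted p = 0.0241), and the call was lost without control 3 and without CDKO 3 (adjusted p = 0.0867 and 0.0615), with a pseudocount of 5 CPM (0.0514) and after quantile normalization (0.283). It shares 44.99% of its windows with Hist1h2bc, which moved the other way. Hist3h2ba had 19, 22 and 21 reads in control and 3, 6 and 0 reads in CDKO. All control libraries were higher, by 6.84 (3.38 to 15.7) times in pooled reads per total, with an exact 95% interval that covers counting error only (limma adjusted p = 0.00954). Hist3h2ba averaged at least 10 reads in control only, so its call is a description.

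H4 is the most conserved histone, and its many genes encode the same protein. Of 5 tested H4 genes 4 rose and 1 fell. Among these, Hist1h4c and Hist4h4 averaged at least 10 reads in 1 group only, so their calls are descriptions. Hist1h4d (chr13:23581598-23582735), the most abundant clustered gene, measured 26.1, 19.7 and 19.8 CPM in control and 29.2, 28.1 and 26.6 CPM in CDKO. The lowest CDKO library was just above the highest control, control 1. The log2 difference was 0.35 ± 0.12 (SE; limma adjusted p = 0.0186), and the gene did not pass without control 2, without control 3 or without CDKO 1 (adjusted p = 0.0822, 0.0786 and 0.0575). Hist1h4i, at chr13:22040636-22041362 on the minus strand with a polyadenylation hexamer near its annotated end, measured 1.76, 2.14 and 1.94 CPM in control and 4.38, 4.92 and 4.21 CPM in CDKO. Its groups were well apart (log2 difference 0.90 ± 0.14 SE, limma adjusted p = 0.000205, ratio of means 2.31).

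Hist1h4h measured 0.818, 0.357 and 0.543 CPM in control and 1.25, 0.916 and 1.22 CPM in CDKO. The groups did not overlap, and limma's adjusted p was 0.0323, but edgeR's was 0.109, DESeq2's was 0.0858, and the call was also lost without control 2, control 3, CDKO 1 or CDKO 3 (adjusted p 0.0701 to 0.119). Hist1h4c had 3, 3 and 20 reads in control and 27, 26 and 32 reads in CDKO. Most of its control reads were in control 3, and its limma adjusted p of 0.0155 became 0.0507 without control 1, 0.0596 without control 2 and 0.0583 with edgeR. Hist4h4, the lone gene of its cluster (chr6:136801553-136804415, minus strand), had 29, 17 and 17 reads in control and 0, 6 and 0 reads in CDKO. No read was found in 2 CDKO libraries, and control was higher by 10.4 (4.53 to 29.5) times in pooled reads per total, with an exact 95% interval that covers counting error only (limma adjusted p = 0.00877). Hist4h4 too averaged at least 10 reads in control only, so its call is a description.

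H2A genes went both ways, with 1 of 8 tested higher, 2 lower and 5 not passed. Of those called, Hist1h2ag and Hist1h2an averaged at least 10 reads in 1 group only, so their calls are descriptions. Hist1h2ae, the most abundant, measured 14.1, 10.9 and 11.1 CPM in control and 10.1, 9.55 and 9.07 CPM in CDKO. Every control library was higher, yet limma's adjusted p was 0.0695 (log2 difference -0.29 ± 0.13 SE), and only DESeq2 among the fits run called it (adjusted p = 0.0437). Hist3h2a measured 5.09, 4.74 and 6.52 CPM in control and 5.39, 5.64 and 4.28 CPM in CDKO. The groups overlapped (limma adjusted p = 0.685), and 32.99% of its exon bases are shared with Trim17 on the same strand or Gm44313 on the other. Hist1h2ab, the only gene above 1 CPM whose model stops near its stem-loop, measured 3.25, 2.74 and 1.49 CPM in control and 2.07, 1.98 and 1.87 CPM in CDKO. The controls spread widely around the CDKO values, and limma's adjusted p was 0.393, or 0.0449 with control higher when control 3 was left out.

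Hist2h2ac measured 1.33, 1.51 and 1.51 CPM in control and 1.03, 1.01 and 0.421 CPM in CDKO. Control was higher throughout, with CDKO 3 the lowest library. The limma adjusted p was 0.0406, which edgeR (0.171) and DESeq2 (0.122) did not call and which rose to 0.0567 or more without any 1 control or without CDKO 3. Hist1h2an had 21, 24 and 23 reads in control and 8, 7 and 9 reads in CDKO. It fell (limma adjusted p = 0.0315), but only 14.2% of its windows were unique, and the call was lost without control 2 or CDKO 2 (adjusted p = 0.0792 and 0.0725), with DESeq2 (0.0586), with a replicate block (0.0593), with a pseudocount of 5 CPM (0.0756) and after quantile normalization (0.462). Hist1h2ag had 3, 5 and 9 reads in control and 22, 21 and 27 reads in CDKO. It rose (limma adjusted p = 0.0113), also with 21.1% of windows unique, since Hist1h2ao holds 71.8% of them. Hist1h2ak and Hist1h2ai had higher means in CDKO (0.365 ± 0.0534 against 0.777 ± 0.346 and 0.168 ± 0.0275 against 0.422 ± 0.0522 CPM, SD, n = 3 each) and did not pass. After quantile normalization both were called (adjusted p = 0.0293 and 0.0308), as were Hist1h2ak without CDKO 2 (0.0245) and Hist1h2ai with no filter (0.00233).

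Replication-dependent H3 was hardly read. The tested H3 genes were Hist1h3g, with 18, 8 and 9 reads in control and 24, 8 and 6 in CDKO, and Hist1h3b, with 12, 1 and 8 and 11, 14 and 18. The groups of Hist1h3g overlapped, those of Hist1h3b did not in CPM, with 1 read in control 2, and neither gene passed (limma adjusted p = 0.854 and 0.220). The variant H3 genes outside the clusters were far higher: H3f3b held 986 ± 62.1 CPM in control against 966 ± 41.1 in CDKO (SD, n = 3 each).

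**Figure D4:**
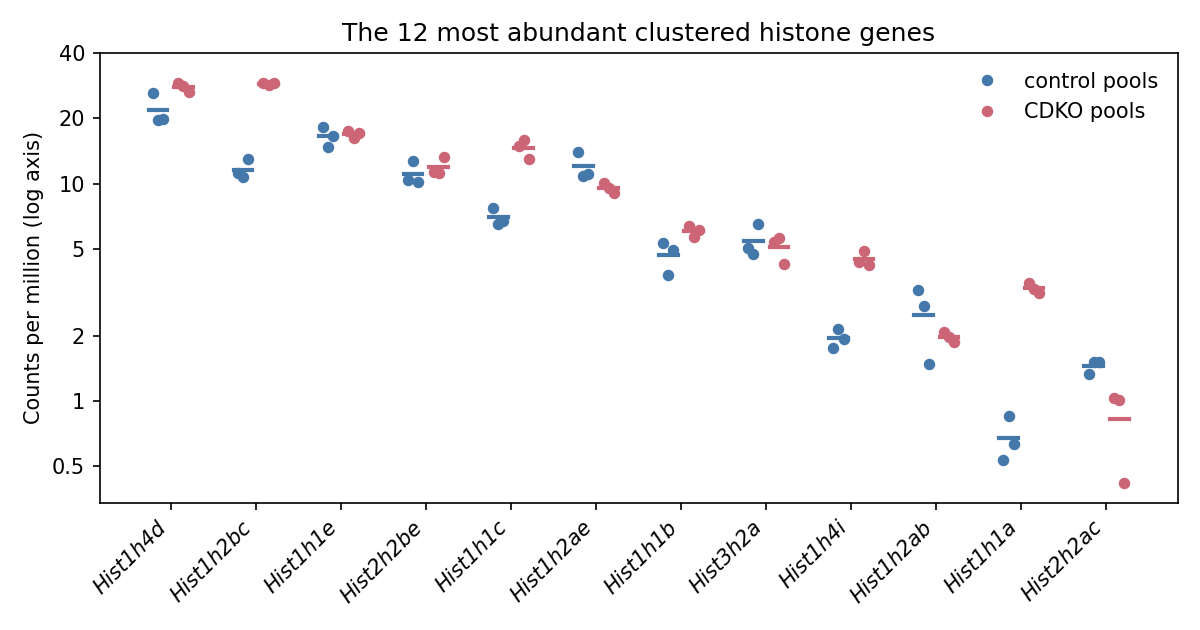
CPM (log axis) of the 12 clustered histone genes with the highest means, with 1 point per library and a bar at each group's mean. Hist1h2bc, Hist1h1c, Hist1h4i and Hist1h1a stand clear of their control pools, and Hist1h1e, Hist2h2be, Hist3h2a and Hist1h2ab overlap.

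The 23 genes with reads that were too few to test had 1 to 57 reads each over all libraries. Together they summed to 1.69 ± 0.249 CPM in control and 2.61 ± 0.210 CPM in CDKO (SD, n = 3 each). The mean was higher in CDKO for 15 and higher in control for 8. Hist2h4, an H4 gene, was the clearest of the 8, with 20, 11 and 14 reads in control and 1, 2 and 5 in CDKO. Hist1h2af and Hist1h2bn were higher in every CDKO library, with 4, 5 and 2 against 16, 11 and 15 reads and 2, 2 and 0 against 8, 6 and 17 reads. These 3 were singled out after their values were seen. In the authors' deposited table, which gives an adjusted p for 40 clustered genes, they are 3 of the 16 called (11 higher and 5 lower in CDKO), against 64.9% of all genes with an adjusted p there. Reads were found in CDKO only for Hist1h4n, Hist1h2bl, Hist1h3f and Hist1h4a and in control only for Hist1h2bp, all with 8 reads or fewer.

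Count models were also fitted. Of the 29 genes edgeR on the recovered reads called 9 higher and 4 lower, against 64.0% of all genes (31.2% higher and 32.8% lower). DESeq2 called 10 higher and 4 lower, against 69.3% (34.1% higher and 35.2% lower). Of the 16 genes called by limma, 13 were also called by edgeR and 12 by all 3 tools. In all, 7 genes were called in every alternative that tested them: Hist1h2bc, Hist1h1c, Hist1h4i, Hist1h1a, Hist1h2bm, Hist1h2ag and Hist1h2bk, all higher in CDKO. Hist1h2ag and Hist1h2bk averaged 10 reads in CDKO only and so passed the filter through the group in which they are high, which leaves their calls as descriptions. Among all genes with a mean under 1 CPM, the range in which 17 of the 29 fall, 61.5% were called.

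Transcription of the clusters depends on promoter elements that differ by class, which can be read from RefSeq sequence. A promoter was found for 61 of the 68 genes (62 promoters, GRCm38.p6, the 250 bases before the start, both strands searched). TATAAA was in 46.8% of them, against 12.4% of all RefSeq promoters, and CCAAT in 82.3%, against 33.8%. The octamer ATTTGCAT, bound by OCT1 at H2B genes, was in 22.6% against 1.60%. It was in 7 of 17 H2A and 7 of 17 H2B promoters and in 0 of the H1, H3 and H4 promoters. Some H2A and H2B genes lie in divergent pairs whose windows overlap, such as Hist1h2ah and Hist1h2bk. The same octamer can therefore be counted for both genes of a pair. The H1 box AAACACA was in 5 of 6 H1 promoters, against 6.25% of all. Upstream sequence is shown for 3 of the genes called higher under every fit that tested them, with these motifs in capitals on either strand. All are on the plus strand, Hist1h1c at chr13:23738557-23738806, Hist1h1a at chr13:23763418-23763667 and Hist1h2bk at chr13:22035571-22035820:
Hist1h1c: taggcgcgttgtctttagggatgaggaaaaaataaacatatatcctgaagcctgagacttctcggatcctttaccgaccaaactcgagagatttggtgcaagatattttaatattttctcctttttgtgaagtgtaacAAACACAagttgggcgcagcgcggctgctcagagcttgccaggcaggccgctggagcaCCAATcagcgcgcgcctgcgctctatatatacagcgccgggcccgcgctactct
Hist1h1a: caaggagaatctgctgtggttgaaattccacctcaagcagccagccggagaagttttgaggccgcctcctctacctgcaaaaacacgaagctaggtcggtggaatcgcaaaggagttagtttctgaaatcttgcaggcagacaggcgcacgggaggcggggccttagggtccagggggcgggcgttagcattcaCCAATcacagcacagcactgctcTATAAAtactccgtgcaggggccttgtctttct
Hist1h2bk: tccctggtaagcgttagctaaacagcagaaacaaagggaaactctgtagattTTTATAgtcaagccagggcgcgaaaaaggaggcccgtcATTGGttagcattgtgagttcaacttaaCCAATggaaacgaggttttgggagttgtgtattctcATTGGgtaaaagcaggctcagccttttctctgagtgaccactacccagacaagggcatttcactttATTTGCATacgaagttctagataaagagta
The Hist1h1c window holds the H1 box and a CCAAT box, that of Hist1h1a a TATA box and a CCAAT box, and that of Hist1h2bk the octamer, CCAAT boxes on both strands and, far upstream of the octamer on the other strand, the TATA letters. These 3 windows thus had no motif in common but the CCAAT box, which most clustered histone promoters hold.

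The histone variants outside the clusters serve chromatin throughout the cycle. Of 11 tested 7 rose and the other 4 did not pass, with a median log2 difference of 0.36. Over all genes tested 66.2% were called and 31.1% were higher. H1f0, a linker histone of resting and differentiated cells, measured 218, 221 and 239.5 CPM in control and 336, 350.3 and 365 CPM in CDKO. H2afx, which marks DNA breaks when phosphorylated, measured 124, 116 and 120.3 CPM in control and 163, 171 and 159 CPM in CDKO. Both were higher in every CDKO library (log2 difference 0.63 ± 0.05 and 0.45 ± 0.05 SE, limma adjusted p = 1.34e-06 and 1.14e-05). H2afz and H2afy, encoding H2A.Z and macroH2A, rose by 0.42 and 0.31 on the log2 scale (limma adjusted p = 8.15e-05 and 6.51e-05). H3f3a and H3f3b, encoding the replacement histone H3.3, did not pass (log2 difference -0.05 ± 0.05 and -0.03 ± 0.05 SE, limma adjusted p = 0.451 and 0.630).

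Another list held 23 genes of the transcription of the clusters and of the 3′ end formation or decay of their mRNAs. In it 9 rose, 3 fell and 11 did not pass (median log2 difference 0.14). Beside this, 66.2% were called over all genes tested, 31.1% higher and 35.2% lower. Hinfp, the factor that binds H4 promoters, measured 19.8, 21.3 and 22.9 CPM in control and 2.495, 4.53 and 4.16 CPM in CDKO. This was the largest fall in the list (log2 difference -2.27 ± 0.17 SE, limma adjusted p = 1.16e-06). Its bearing on the H4 genes was not tested. Lsm11 and Zfp473 both belong to the U7 machinery and moved in opposite directions. Lsm11 measured 62.6, 51.1 and 55.4 CPM in control and 38.5, 36.9 and 31.7 CPM in CDKO (log2 difference -0.64 ± 0.09 SE, limma adjusted p = 0.000105). Zfp473 measured 2.48, 2.88 and 3.61 CPM in control and 9.13, 11.2 and 7.65 CPM in CDKO (log2 difference 1.37 ± 0.17 SE, limma adjusted p = 3.32e-05). Sympk, the scaffold of the cleavage complex, rose by 0.37 on the log2 scale (limma adjusted p = 0.000377). Slbp measured 164, 165 and 169.9 CPM in control and 185, 187 and 185 CPM in CDKO, a small rise of 0.16 ± 0.04 (SE, log2 scale, limma adjusted p = 0.00552) with no overlap. Npat, the cyclin E-CDK2 target that activates the clusters, rose from 77.1 ± 1.92 to 90.1 ± 9.94 CPM (SD, n = 3 each; limma adjusted p = 0.0207) and did not pass without control 1, control 2 or CDKO 1 (adjusted p = 0.0633, 0.0645 and 0.0773).

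**Figure D5:**
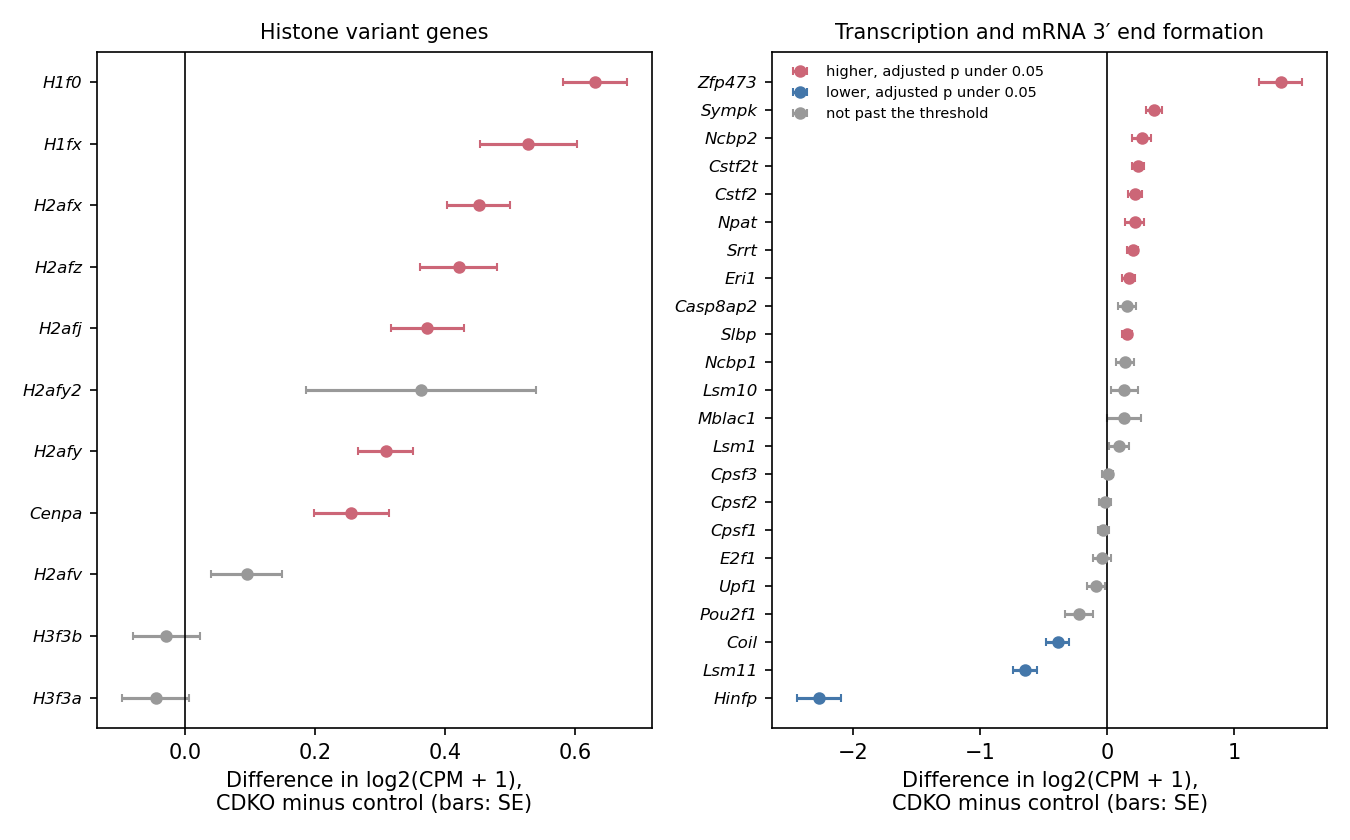
Difference in log2(CPM + 1), CDKO minus control (x axis, with the standard error from limma as bars), coloured by limma call. The first list is the tested histone variants outside the clusters. The second is the genes of histone transcription and of mRNA 3′ end formation or decay. In the first list 7 of 11 lie to the right past the threshold, and in the second Hinfp at -2.27 and Zfp473 at 1.37 stand at the ends.

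Histone chaperones, which carry new histones to DNA, gave 18 higher, 8 lower and 2 not passed of 28 (median log2 difference 0.20). The smallest p belonged to Cdan1 and Hira, which fell by 0.91 and 0.95 on the log2 scale, and to Anp32b and Daxx, which rose by 0.40 and 0.43 (limma adjusted p = 1.16e-06, 8.29e-06, 8.90e-06 and 1.35e-05). Of 30 S phase genes 19 rose, 4 fell and 7 did not pass (median 0.28), led by Pola1 at 0.71 and Ccna2 at 0.92 (limma adjusted p = 2.09e-06 and 2.98e-06). The S phase genes summed to 1.21 times as many CPM in CDKO as in control. Beside these shares, 31.1% of all genes tested were higher and 35.2% lower.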

How the data were processed

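The 68 members, the gene lists and the tests were chosen with earlier results of these data known. Groups were taken from the labels, with 3 libraries each; no batch is named there, and the p-values measure the spread between pools. TopHat2, HTSeq and DESeq2 are named without versions, with the build mm10, per the submitters' processing notes; the annotation and the handling of reads that fit several genes are not given in the sources used here. The deposited values per library are CPM, scaled by the authors to the library's total. Dividing by the value of 1 read gave whole reads for 100.0% of values, to within 0.01 read. The column baseMean, as deposited, is a mean signal over libraries after the authors' scaling. The deposited log2 fold change is control over CDKO and was turned. The deposited stat is a score, and both p-value columns were made by the authors.

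Log2(CPM + 1) was tested with limma (3.58.1, R 4.3.3; eBayes with trend) for genes with a mean of at least 10 recovered reads (about 0.255 CPM at the mean depth), two-sided, with Benjamini-Hochberg adjustment over 13732 genes. Not tested were 12 rows named by dates and 2 rows sharing a symbol. edgeR 4.0.16 and DESeq2 1.42.0 were run on the recovered reads. The script was tested on simulated data. Named genes are the 12 highest members, up to 10 per direction by p, and up to 4 per list by p with Slbp, Npat, H2afz, H2afx, H3f3a and H3f3b. Other members named as not passing, and Hist2h4, Hist1h2af and Hist1h2bn, were chosen after their values were seen. Alternatives were other filters, pseudocounts, scalings, tools, a replicate block and leaving out each library.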

Additional observations from a re-analysis of the deposited data

How the results depend on the processing

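The filter set how many clustered genes were tested, 29 as reported, 52 with no filter, 11 at a mean of 50 reads and 6 at a mean of 10 CPM. With no filter 18 were higher and 8 lower, at 50 reads 5 and 0, and at 10 CPM 3 and 0, where none of the 5 lower genes was tested. Quantile normalization with limma also left 0 lower, against 4 with edgeR and 4 with DESeq2, and a pseudocount of 5 CPM left 3 lower. Leaving out 1 library gave 7 to 12 higher and 3 to 5 lower; the 7 came without control 2, and the 3 without control 2 or CDKO 3. The median log2 difference, 0.28 as reported, was 0.085 with no filter, 0.33 at 50 reads, 0.22 at 10 CPM, 0.42 after quantile normalization, 0.36 and 0.072 with pseudocounts of 0.5 and 5 CPM, 0.39 with edgeR and 0.39 with DESeq2, and 0.21 to 0.30 with 1 library left out. The ratio of summed CPM, 1.36, was 1.51 after quantile normalization, 1.32 to 1.42 with 1 library left out, and 1.22 without Hist1h2bc, a choice made after seeing the data. Of 311 values for the 21 named members, 275 kept side and sign, 27 lost and 4 gained the call. In 5 the sign turned, all in genes not called: Hist1h1e was −0.031 without control 2 and −0.031 to 0.11 over the left-out libraries, Hist3h2a turned without control 3 and without CDKO 3 (−0.16 to 0.038 over the left-out libraries) and was 0.076 after quantile normalization, and Hist1h2ab was 0.025 after quantile normalization. The causes were not tested. The replicate numbers paired nothing beyond the number: same-numbered libraries' deviations correlated at 0.052, 0.048 and −0.012, and a replicate block gave 11 higher, 4 lower (Hist1h2an lost at 0.0593) and a median of 0.28. Depth limits the 40 genes under 1 CPM most, since 3 reads are 0.0701 to 0.0913 CPM.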
